A study of Mus musculus with 6 samples.

Results

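The genes described here are the cytochrome P450s (CYPs) of families 1 to 4 in single cells of the mouse small intestinal mucosa. They were taken by name alone, as every gene symbol made of Cyp, a digit from 1 to 4 and a letter that had at least 20 unique molecular identifiers (UMIs, each marking 1 captured RNA molecule) over the whole series. Of the 32285 listed genes, 82 symbols had such a name; 46 of these reached 20 UMIs and are the members, 25 had fewer, and 11 had none. The levels of 24 members with at least 10 CPM in some epithelial class, or at least 5 CPM and a called difference, are given by name, and the others by counts and ranges, apart from a few chosen after their values were seen.

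P450s are haem enzymes of the endoplasmic reticulum that insert oxygen into fat-soluble substrates, with electrons passed to them by P450 oxidoreductase (Por) and in part by cytochrome b5 (Cyb5a). Enzymes of family 1 oxidize aromatic hydrocarbons, those of families 2 and 3 clear most drugs, steroids and plant compounds, and those of family 4 hydroxylate the ends of fatty acids and eicosanoids. In the gut they sit mainly in absorptive enterocytes, where enzymes of the 3A subfamily meet oral drugs and dietary compounds before the liver does, and where genes of families 1 to 4 are switched by nuclear receptors such as PXR, CAR and PPARα and by the aryl hydrocarbon receptor.

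The study asked how RNA profiles of single intestinal cell types change after deletion of HuR, an RNA-binding protein encoded by Elavl1. It compared IE-HuR-/- mice, in which floxed HuR alleles (HuR fl/fl) meet Cre driven by the villin promoter, with control littermates that carried the same floxed alleles without Cre. All animals were C57BL/6 mice 6 to 8 wk old, food was withheld before the tissue was taken according to the methods while the labels give normal feeding, and villin-Cre acts in epithelial cells only, so that blood and stromal cells of IE-HuR-/- mice keep HuR. There were 3 libraries per label, 1 for each replicate, and nothing in the labels ties them further, so that p-values measure the spread between these libraries.

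The 6 libraries held 60706 barcodes and 428980031 UMIs, between 59518012 and 91818560 UMIs each. With at least 2000 UMIs and 200 genes per barcode, 30840 cells remained; the study states a count near that of all barcodes. Cells were assigned by the share of their UMIs in marker genes (no P450 among them), which gave 16387 enterocytes (2011 to 4163 per library), 643 goblet cells, 204 enteroendocrine cells, 118 tuft cells, 174 crypt progenitors and 7 Paneth cells, and 5626 T or NK cells outside the epithelium. The progenitor gate lists cell-cycle genes and asks for no epithelial marker, so other cycling cells could pass. Of 8 epithelial markers, 6 were lower and 2 higher in progenitors than in enterocytes (median log2 difference -2.10, edgeR), and 108 cells lay close to the cut of this gate. Another 5591 cells passed no gate, 4442 of them with enterocyte markers at 1 to 3% of their UMIs where the enterocyte gate asks for 3%, and 826 passed more than 1 gate. Pairs of libraries shared 22 to 44 barcode sequences. Elavl1 itself was at 28.2, 30.1 and 28.3 CPM (UMIs per 1000000 UMIs of the class) in control enterocytes and at 29.3, 29.5 and 30.4 CPM in those labelled IE-HuR-/-. The RNA was not lower under the knockout label (log2 change 0.24, edgeR). UMIs from exons outside the deleted part, which the sources used here do not name, would still be counted. The RNA level thus checks no deletion, and the directions below rest on the labels of the libraries. For the protein, the study reports by immunostaining that HuR was almost lost from small intestinal epithelial cells of IE-HuR-/- mice. In droplet libraries free RNA gives UMIs in every class: T or NK cells carried enterocyte markers at 7.91% of the enterocyte level, and each level in another class is read against that.

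All 46 members lie on protein-coding genes of GRCm38, the build named by the labels (mm10), and most sit in clusters. The Cyp2c genes are on chromosome 19 (9 members), the Cyp4f genes on chromosome 17 (7 members between 32452723 and 32947402, with Cyp4f18 apart on chromosome 8), the Cyp2d genes on chromosome 15 (6 members between 82370527 and 82794294) and the Cyp3a genes on chromosome 5 (5 members). Cyp3a11 lies at chr5:145854426-145879964 on the minus strand, Cyp3a13 at chr5:137892932-137921619 on the minus strand, away from the other Cyp3a genes, and Cyp2c29 at chr19:39269405-39330713 on the plus strand. Neighbours such as Cyp2c65, at chr19:39061015-39093944, and Cyp2c66, at chr19:39113898-39187072, differed in their response to the label, as did the members Cyp2c55, at chr19:39007019-39042693, and Cyp2c68, at chr19:39688834-39741054. The letters upstream of 6 of these genes are shown to set the strongest and the weakest label differences and the opposite villus profiles side by side. They are the plus or minus strand as named, read toward the RefSeq transcription start from 250 bases upstream and ended before the first annotated exon base, from RefSeq on GRCm38.p6. Capitals mark matches to CAAAGTCCA, an HNF4 type element, to TATAAA, the letters of a TATA box, and to AGGTCA, a nuclear receptor half-site, on either strand. Matches are by letters alone, at any place in the window, and whether one works as such an element was not tested. The TATAAA matches shown begin at -234 in Cyp3a11, -162 in Cyp2c65, -150 in Cyp2c66 and -19 in Cyp2c29.
Cyp3a11, chr5:145879965-145880104, - strand: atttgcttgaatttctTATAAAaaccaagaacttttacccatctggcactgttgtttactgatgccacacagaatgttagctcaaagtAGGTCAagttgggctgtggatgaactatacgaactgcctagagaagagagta
Cyp3a13, chr5:137921620-137921869, - strand: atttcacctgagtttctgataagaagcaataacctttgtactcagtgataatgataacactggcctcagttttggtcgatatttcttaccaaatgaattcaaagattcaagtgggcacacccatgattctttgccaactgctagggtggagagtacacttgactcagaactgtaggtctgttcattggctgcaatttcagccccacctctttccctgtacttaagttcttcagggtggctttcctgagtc
Cyp2c29, chr19:39286835-39287073, + strand: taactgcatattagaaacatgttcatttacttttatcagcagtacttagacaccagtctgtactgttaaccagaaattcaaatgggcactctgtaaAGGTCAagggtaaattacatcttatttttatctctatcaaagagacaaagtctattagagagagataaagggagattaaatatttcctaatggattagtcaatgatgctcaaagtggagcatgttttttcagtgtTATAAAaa
Cyp2c65, chr19:39060756-39061005, + strand: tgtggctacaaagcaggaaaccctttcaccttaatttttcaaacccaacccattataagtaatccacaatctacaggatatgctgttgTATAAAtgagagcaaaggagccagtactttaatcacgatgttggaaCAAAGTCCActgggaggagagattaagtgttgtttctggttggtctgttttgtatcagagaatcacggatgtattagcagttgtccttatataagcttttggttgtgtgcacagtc
Cyp2c66, chr19:39113648-39113897, + strand: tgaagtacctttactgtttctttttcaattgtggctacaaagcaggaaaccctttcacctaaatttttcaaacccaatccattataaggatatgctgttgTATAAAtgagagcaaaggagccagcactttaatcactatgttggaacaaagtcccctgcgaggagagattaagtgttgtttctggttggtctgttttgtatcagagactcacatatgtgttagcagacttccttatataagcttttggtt
Cyp2c68, chr19:39741102-39741351, - strand: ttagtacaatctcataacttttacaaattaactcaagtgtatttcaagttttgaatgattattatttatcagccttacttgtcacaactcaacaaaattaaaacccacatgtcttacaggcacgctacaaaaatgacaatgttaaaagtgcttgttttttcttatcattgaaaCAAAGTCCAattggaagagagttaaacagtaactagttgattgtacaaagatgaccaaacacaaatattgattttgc
The promoter table matched 38 of the 46 members. CAAAGTCCA was found within the 250 bases upstream of 5 members (Cyp2c40, Cyp2c65, Cyp2c67, Cyp2c68 and Cyp3a11, where it lies at -109 to -101, in an annotated exon and not printed), against 0.451% of all 27025 promoters of that length. TATAAA was found for 16 members, against 14.3% of all promoters, and AGGTCA for 7 (Cyp2c29, Cyp2f2, Cyp2j5, Cyp3a11, Cyp3a25, Cyp3a44 and Cyp3a59), against 15.8%. GCGTG, the core of the element of the aryl hydrocarbon receptor, matched in 8 members and in 30.9% of all promoters, and TTTATGG, the element of the CDX factors, in Cyp2b10 alone and in 2.83% of all. All motifs were searched on both strands, and in the printed windows no match of one overlapped a match of another. Of the neighbours Cyp2c65 and Cyp2c66, only the first has the exact HNF4 type match. In the second the letters at the corresponding place are CAAAGTCCC, which differ in the last base alone.

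In enterocytes, Cyp3a11 and Cyp3a13, the intestinal drug- and steroid-oxidizing CYP3A enzymes, led the P450 RNAs. The 46 members together took 1958065 UMIs, 0.7% of all enterocyte UMIs. Cyp3a11 alone gave 22.7% of these, the 4 most abundant members (Cyp3a11, Cyp3a13, Cyp4f14 and Cyp3a25) gave 61.5%, and 20 members had at least 10 CPM. UMIs count each captured molecule once by its end, so levels were not divided by gene length. The label difference is part of these levels: in control libraries the order was Cyp3a11 (2442 CPM), Cyp3a13 (1763 CPM), Cyp4f14 (721 CPM) and Cyp3a25 (644 CPM), and in libraries labelled IE-HuR-/- it was Cyp3a13 (1171 CPM), Cyp4f14 (762 CPM), Cyp3a11 (524 CPM) and Cyp4v3 (391 CPM). In each order the neighbours' libraries did not overlap.

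**Figure D1:**
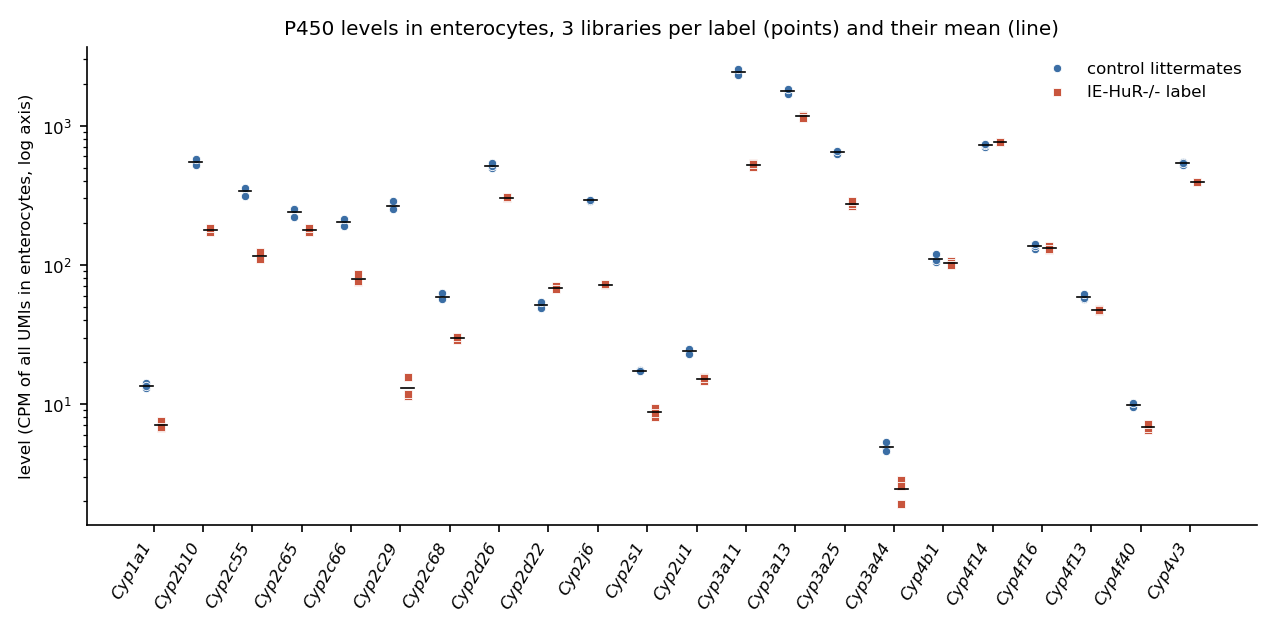
Level of 22 P450 RNAs in enterocytes, in CPM on a log axis, with 1 point per library (3 per label) and a line at each mean. The libraries of the labels are apart for most of these P450s, widest for Cyp2c29 (266 CPM against 12.9 CPM on average), and overlap for Cyp4b1 and Cyp4f16. Of all genes tested in enterocytes 59.9% were called by label, and how many of them lie apart was not counted.

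Most P450 RNAs were lower in the other epithelial classes than in enterocytes, and a few, led by Cyp2s1 and Cyp2c68, were not. Over the 22 members with at least 1000 UMIs in enterocytes, the median level was 15.3% of the enterocyte level in goblet cells, 17.7% in enteroendocrine cells, 15.8% in tuft cells, 8.05% in progenitors and 11% in T or NK cells. The summed enterocyte markers stood at 12.1%, 10.9%, 8.19%, 5.82% and 7.91% of the enterocyte level in the same classes. The P450 median thus lay above the marker level in each class, T or NK cells included, and in T or NK cells none of the 22 exceeded 50%. The part of free RNA in these P450 levels was not tested.

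Among the epithelial classes, goblet cells, which secrete mucin, stood out by Cyp2s1, a P450 found mostly outside the liver. Fibroblasts, outside the epithelium, held more of it, at a pooled 1992% of the enterocyte level. Cyp2s1 was at 59.1, 78.6 and 75.3 CPM in goblet cells of the control libraries and at 60.4, 55.1 and 53.4 CPM in those labelled IE-HuR-/-, and between 8.06 and 17.7 CPM in enterocytes. Every goblet value was above every enterocyte value. The difference was 2.59 ± 0.12 on the log2 scale (SE, edgeR with library as a block, adjusted p = 7.0e-13), and T or NK cells had 13.7% of the enterocyte level. Of 28 members tested between goblet cells and enterocytes, 3 were higher and 23 lower in goblet cells, where 59.6% of all tested genes were called, 27.6% as higher and 32% as lower. The others that were higher were Cyp2c68 (0.42 ± 0.11, adjusted p = 0.0033, edgeR), which lost its call without TMM scaling (0.17), and Cyp2d10, which had under 5 CPM in each class and was named after its values were seen. Cyp4f13 stood at 66.9% of the enterocyte level and Cyp2j6, a fatty acid epoxygenase, at 33.1%.

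Enteroendocrine cells, the hormone-secreting cells, held Cyp2c68, Cyp2u1 and Cyp2s1, all minor in enterocytes, at higher pooled levels than enterocytes. Cyp2c68 was at 113, 101 and 110.0 CPM in the control libraries and at 88.7, 86.1 and 88.7 CPM in those labelled IE-HuR-/-, against 57.4, 57.0 and 62.4 CPM and 30.4, 28.9 and 30.2 CPM in enterocytes of the same libraries. It was higher in enteroendocrine cells in 6 of 6 libraries, and its pooled level was 216% of that in enterocytes. Cyp2u1, a hydroxylase of long-chain fatty acids, was at 24.6, 34.2 and 57.6 CPM and at 50.4, 31.2 and 41.2 CPM, 196% of the enterocyte level, and Cyp2s1 was at 165%. Scaling decides how these read: the median of all tested genes was 0.87 higher on the log2 scale in enteroendocrine cells without TMM scaling. With TMM scaling, Cyp2c68 was 0.30 ± 0.12 higher (adjusted p = 0.029, edgeR), a call lost without any 1 of the IE-HuR-/- replicates (0.21 to 0.23), Cyp2u1 was not called (0.12 ± 0.18) and Cyp2s1 was not called (-0.15 ± 0.25). Cyp4b1, which oxidizes fatty acids and furan toxins, was at 158, 113 and 181 CPM and at 96.8, 172 and 109 CPM in enteroendocrine cells, above the enterocytes of its own library in 5 of 6 libraries. Its fitted difference was lower with TMM scaling (-0.53 ± 0.12, adjusted p = 0.00037, edgeR) and higher without (0.37), so it has no direction apart from the scaling. In all, 2 of 28 members tested were higher and 23 lower, and 75.1% of all tested genes were called, 36.8% as higher and 38.3% as lower; without TMM scaling 5 were higher and 20 lower.

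Cyp2j5, an epoxygenase best known from the kidney, and Cyp2f2, which oxidizes naphthalene in the airway, were near 0 in enterocytes, with 5 and 6 UMIs in the class. In enteroendocrine cells Cyp2j5 had 58 UMIs, at 31.1, 18.8 and 7.86 CPM in the control libraries and at 30.2, 1.48 and 2.06 CPM in the others. It met the count filter of the test between classes only through its enteroendocrine UMIs, so its call as higher there is no support. The fitted fold rests on the few enterocyte UMIs and is not given. Cyp2f2 had 85 UMIs there, at 0, 22.2 and 61.5 CPM and at 14.1, 8.91 and 24.7 CPM, and was not among the genes tested between these classes. The libraries of each label were widely spread for both.

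Tuft cells, the chemosensory cells, and progenitors of the crypt held no member that was higher than in enterocytes by the test. In tuft cells 23 of 26 tested members were lower, where 63.2% of all tested genes were called, 35.7% as lower. In progenitors 22 of 27 were lower, where 75.5% of all were called, 41% as lower. Cyp4f13 was at 84.4% of the enterocyte level in tuft cells, with 51.7, 56.1 and 60 CPM in the control libraries and 55.9, 26.8 and 34.5 CPM in the others, and was called lower (-0.88 ± 0.17, adjusted p = 2.8e-05, edgeR), a call lost without TMM scaling (-0.21). In progenitors Cyp4f40 was at 185% and Cyp2s1 at 154% of the enterocyte level, from 40 and 53 UMIs, and neither passed the test (log2 difference -0.02 ± 0.27 and -0.30 ± 0.25). Cyp3a44 was at 203% in tuft cells from 16 UMIs and was not called (0.40 ± 0.48). The 7 Paneth cells were too few for any statement on P450s.

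**Figure D2:**
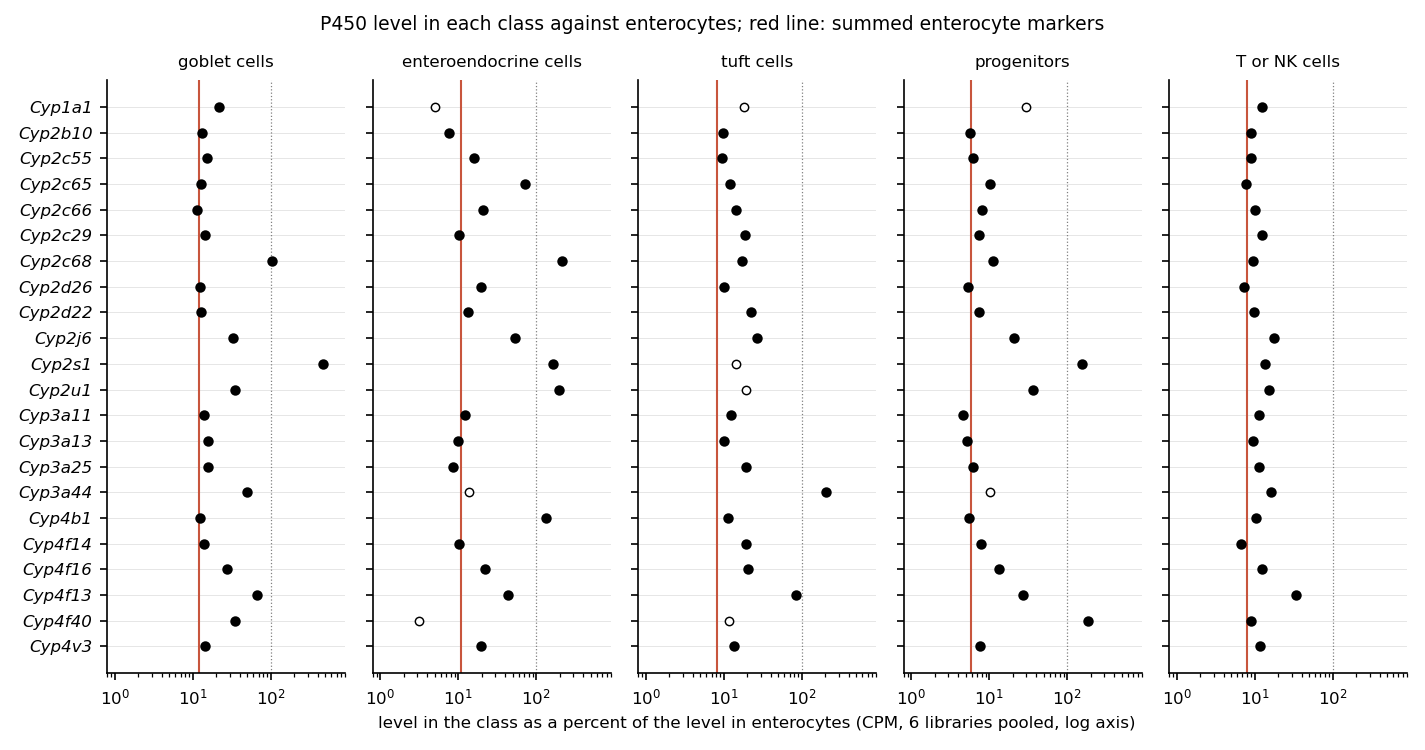
Level of 22 P450 RNAs in goblet cells, enteroendocrine cells, tuft cells, progenitors and T or NK cells, as a percent of the enterocyte level (CPM, 6 libraries pooled, log axis). Open points rest on few UMIs in the class, and the point of Cyp3a44 in tuft cells rests on 16 UMIs. The red line is the summed enterocyte markers in the class (5.82 to 12.1%) and the dotted line is 100%. Cyp2s1 in goblet cells (473%) and Cyp2c68, Cyp2u1, Cyp2s1 and Cyp4b1 in enteroendocrine cells lie right of 100%. So do Cyp2c68 in goblet cells, Cyp4f40 and Cyp2s1 in progenitors and Cyp3a44 in tuft cells. Once scaled by TMM, Cyp4b1 and Cyp2s1 in enteroendocrine cells turn to lower, Cyp2s1 without a call. Cyp4f40 and Cyp2s1 in progenitors turn to lower as well, without a call.

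Along the villus, P450s ran in both directions. Of the 4 most abundant members in enterocytes, Cyp3a11 and Cyp3a13 were higher toward the tip, and Cyp4f14 and Cyp3a25 were lower. Enterocytes move from the crypt to the villus tip as they age, and each was placed by landmark genes of the lower and upper villus (no P450 among them) on counts thinned to 2000 UMIs per cell, then sorted into 3 bins of equal cell number within its library. Between the upper and lower bin, 6 of 26 members tested were higher and 16 lower toward the tip, where 78.7% of all tested genes were called, 36.8% as higher and 41.9% as lower. Without TMM scaling the median of all genes moved from -0.08 to -0.38 and 4 members were higher and 20 lower. The lower-villus landmarks were at 4538 to 5290 CPM in enterocytes of the control libraries and at 15200 to 15869 CPM in those labelled IE-HuR-/-, the upper-villus landmarks at 20214 to 22323 CPM and at 18815 to 20322 CPM, so bins of both labels are of equal size but not of equal landmark level. With all landmarks, 24 of 28, 24 of 28 and 20 of 26 tested members were called by label in the lower, middle and upper bin. Of all tested genes 48.9%, 49% and 58.1% were called in these bins. With Reg1, Reg3b and Reg3g left out of the landmarks, 24, 25 and 22 members were called. That setting ended the calls of Cyp4b1 by label in the lower bin (0.10, adjusted p = 0.19, edgeR) and of Cyp1a1 between bins (-0.63, adjusted p = 0.12, edgeR).

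Cyp3a13 was at 1189, 1086 and 1060 CPM in the lower bin and at 2384, 2340.5 and 2641 CPM in the upper bin of the control libraries. In libraries labelled IE-HuR-/- it was at 817, 793 and 803 CPM in the lower and at 1607, 1669 and 1576 CPM in the upper bin. It was higher toward the tip in 6 of 6 libraries, by 1.96 to 2.49 times, with a log2 difference of 1.38 ± 0.05 (adjusted p = 5.1e-10, edgeR). Cyp4f16, of the subfamily that hydroxylates leukotrienes and fatty acids, behaved alike, at 2.35 to 2.88 times (1.62 ± 0.043, adjusted p = 6.5e-11, edgeR). Of the 90-base windows at the start of its transcripts, 9.01% also occur in Cyp4f17 or a further gene. Over all cells Cyp4f16 had 46260 UMIs, Cyp4f17 had 183 and the further gene, Cyp4f37, had 3. What the shared windows do to the count was not tested.

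Cyp3a11 was at 2234, 1968 and 2178 CPM in the lower bin and at 2517, 2414 and 2755 CPM in the upper bin of the control libraries, and at 389, 310.1 and 376 CPM and 614, 669 and 659 CPM in the others. The upper to lower ratio was 1.13 to 1.27 in control libraries and 1.58 to 2.16 in those labelled IE-HuR-/-, and the middle bin was the highest in 4 of 6 libraries. The log2 difference was 0.87 ± 0.13 (adjusted p = 0.00037, edgeR). Cyp3a11 stood above Cyp3a13 in both bins of 3 of 3 control libraries, and Cyp3a13 above Cyp3a11 in both bins of 3 of 3 libraries labelled IE-HuR-/-. Cyp4b1 was higher toward the tip as well (0.59 ± 0.044), whereas Cyp2d22 (0.28) and Cyp2d26 (0.17) were higher with TMM scaling and lower without (-0.02 and -0.13).

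Toward the base of the villus, Cyp4f40, another CYP4F member, had the steepest profile. It was at 20.4, 19.2 and 22.2 CPM in the lower bin of the control libraries and at 15.8, 16.5 and 16.5 CPM in that of the others, and in the upper bin at 0.3 to 2.2 CPM over all 6. Its log2 difference was -3.55 ± 0.21 (adjusted p = 1.3e-07, edgeR). Cyp2u1 was lower at the tip by 2.14 ± 0.20 on the log2 scale, Cyp2c68 by 1.5 ± 0.10, Cyp2c66 by 1.24 ± 0.12 and Cyp2s1 by 1.10 ± 0.12. Of the 2C group, which holds arachidonic acid epoxygenases and hydroxylases, 5 of 6 tested members fell toward the tip. Cyp2c29 was not called (-0.16 ± 0.14), though its CPM was lower in the upper bin in 5 of 6 libraries. Cyp3a25, a neighbour of Cyp3a11, fell by 0.84 ± 0.059, Cyp2b10, the classic target of the receptor CAR, by 0.73 ± 0.061, and Cyp2j6 by 0.45 ± 0.068. Cyp4f14 was called lower too, with a CPM in the upper bin of 0.55 to 0.75 times that in the lower bin over all 6 libraries. Cyp1a1, the classic target of the aryl hydrocarbon receptor, was lower by 0.77 ± 0.28 (adjusted p = 0.040, edgeR), a call lost without any 1 of control replicates 1 (-0.87) and 2 (-0.88) and of the IE-HuR-/- libraries 2 (-0.61) and 3 (-0.72). The 3 tested members that were not called, apart from Cyp2c29, were Cyp4v3 (-0.04 ± 0.039), Cyp4f13 (0.11 ± 0.063) and Cyp3a44 (1.20 ± 0.48). In CPM, without TMM scaling, Cyp4v3 and Cyp4f13 were lower in the upper than in the lower bin in 6 of 6 libraries. Cyp3a44 was higher there in 5 of 6. The direction of Cyp4f13 thus depends on the scaling.

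**Figure D3:**
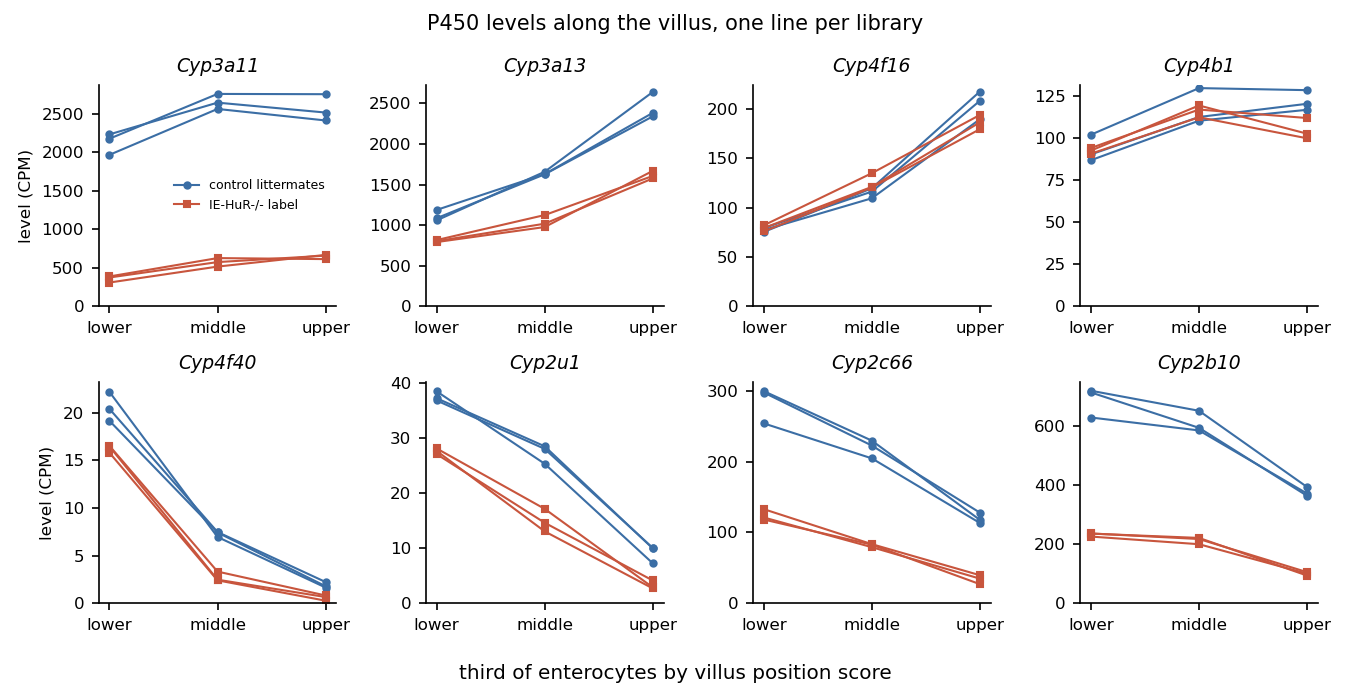
Level of 8 P450 RNAs in CPM in the lower, middle and upper villus bin of enterocytes, with 1 line per library (blue: control littermates, red: IE-HuR-/- label, 3 each). Cyp3a13 and Cyp4f16 climb toward the tip in 6 of 6 libraries, and Cyp4f40, Cyp2u1, Cyp2c66 and Cyp2b10 fall in 6 of 6.

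Between the labels, the P450 sum of enterocytes was 9019, 8655 and 9364 CPM in the control libraries and 4513, 4437 and 4517 CPM in those labelled IE-HuR-/-. The means were 9013 ± 355 and 4489 ± 45.1 CPM (SD, n = 3 libraries each), a ratio of 2.01, and the libraries did not overlap. Cyp3a11 made up 42.4% of the difference, Cyp3a13 13.1%, Cyp2b10 8.21%, Cyp3a25 8.17% and Cyp2c29 5.59%. Of 32 members with enough UMIs to be tested, 25 were lower, 4 were higher and 3 were not called in the libraries labelled IE-HuR-/- (edgeR, adjusted p under 0.05). Over all 12463 genes tested in enterocytes, 59.9% were called, of all tested genes 30.2% as lower and 29.7% as higher. The median log2 change was -0.77 over the 32 members and -0.01 over all genes. The changes below are relative to that median; without TMM scaling it shifts to -0.21, and 25 members were then lower and 2 higher. Among the 14 members not tested, none exceeded 1 CPM on average.

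Cyp3a enzymes oxidize drugs, steroids and bile acids, and 4 of 5 tested members were lower, beside 30.2% of all tested genes. Cyp3a11, the classic target of the receptor PXR, was at 2458, 2305 and 2563 CPM in control enterocytes and at 536, 503 and 533 CPM in those labelled IE-HuR-/-. All control libraries were above all others, and the log2 change was -2.02 ± 0.049 (adjusted p = 1.5e-27, edgeR). Cyp3a25 was at 648, 622 and 662 CPM and at 265, 271 and 287 CPM (-1.03 ± 0.043, adjusted p = 1.8e-20, edgeR), and 7.71% of the windows at the start of its transcripts are shared with Cyp3a59. Cyp3a13, at 1766, 1698 and 1826 CPM and at 1191, 1179 and 1143 CPM, fell by 0.39 ± 0.046. Thereby Cyp3a11 went from 27.1% to 11.7% of the P450 sum, and Cyp3a13 from 19.6% to 26.1%. Cyp3a44, at 4.6 to 5.35 CPM and at 1.92 to 2.86 CPM, fell by 0.80 ± 0.12, and Cyp3a59 was not called (-0.09 ± 0.25).

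Cyp2c enzymes form epoxides and alcohols of arachidonic acid and oxidize drugs, and all 8 tested members were lower, beside 30.2% of all tested genes. Cyp2c29 had the widest gap of the members above 5 CPM, at 263, 250.1 and 285 CPM in control enterocytes and at 11.5, 11.7 and 15.6 CPM in the others. The ratio of the means was 20.6 and the log2 change -4.16 ± 0.12 (adjusted p = 3.4e-07, edgeR). Cyp2c55 was at 352, 311 and 354 CPM and at 112, 109 and 124 CPM (-1.36 ± 0.051, adjusted p = 4.5e-19, edgeR). Its neighbours differed in size: Cyp2c66, at 211, 189 and 212 CPM and at 75.2, 76.9 and 85.5 CPM, fell by 1.17 ± 0.049, whereas Cyp2c65, at 253, 221 and 249.8 CPM and at 175, 172 and 184 CPM, fell by 0.25 ± 0.047. Cyp2c68 was at 57.4, 57.0 and 62.4 CPM and at 30.4, 28.9 and 30.2 CPM (-0.78 ± 0.049). For its transcripts 28.0% of the windows at the end, and 0% at the start, also occur in Cyp2c40 or Cyp2c67. No label library of these 5 genes overlapped the other label, and how many of all genes lie apart in this way was not counted. Summed over its 9 members, the Cyp2c group was at 1143, 1034 and 1169 CPM and at 406, 400.3 and 442 CPM.

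Among the other family 2 genes, apart from the rare members given last, Cyp2j6 and Cyp2b10 fell most. Cyp2j6 was at 292, 289 and 290.4 CPM in control enterocytes and at 71.8, 71.2 and 72.6 CPM in the others (-1.82 ± 0.043, adjusted p = 8.2e-28, edgeR), with the replicates of each label within a few CPM. Cyp2b10 was at 548, 523 and 578 CPM and at 180.1, 171 and 184 CPM (-1.43 ± 0.045, adjusted p = 5.6e-24, edgeR). The Cyp2d genes, counterparts of the human drug-oxidizing CYP2D6, moved apart. Cyp2d26, at 498, 509 and 539 CPM and at 303, 300.2 and 305 CPM, fell by 0.57 ± 0.043, while Cyp2d22, at 51.7, 49.2 and 53.9 CPM and at 68.7, 69.8 and 66.7 CPM, rose by 0.61 ± 0.047 (adjusted p = 3.0e-13, edgeR). Cyp2s1 (17.1, 17.7 and 17.1 CPM, against 9.35, 8.06 and 8.65 CPM) fell by 0.80 ± 0.065, and Cyp2u1 (24.2, 24.8 and 23.0 CPM, against 14.6, 15.5 and 15.4 CPM) fell by 0.47 ± 0.056. Of the rare members, named after their values were seen, Cyp2j9 fell by 2.97 ± 0.19 and Cyp2c38 by 4.34 ± 0.29, and Cyp2a12, at 0.41 to 0.65 CPM in the control libraries, had no UMI in any library labelled IE-HuR-/-. Cyp1a1, the single member of family 1, was at 12.9, 14.1 and 13.4 CPM and at 7.50, 6.72 and 6.86 CPM and fell by 0.75 ± 0.071 (adjusted p = 4.1e-11, edgeR).

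Family 4 hydroxylates fatty acids and eicosanoids, and its members did not share a direction. Of 8 tested, 3 were higher, 4 lower and 1 was not called, where 29.7% of all tested genes were called as higher and 30.2% as lower. Cyp4f14, an enzyme of leukotriene and vitamin E breakdown, was at 701, 723 and 739 CPM in control enterocytes and at 762, 758 and 767 CPM in the others. These libraries did not overlap, and the change of 0.28 ± 0.043 (adjusted p = 1.2e-06, edgeR) came down to 0.08 and lost its call without TMM scaling. Cyp4f16 was at 129, 137 and 141 CPM and at 137, 128 and 129.6 CPM, which overlap; it was called higher with TMM scaling (0.15 ± 0.046), lost the call without IE-HuR-/- replicate 1 (0.12), and was lower, without a call, when unscaled (-0.04). Cyp4b1 (105, 108 and 120.0 CPM, against 107, 104 and 99.9 CPM) overlapped and was not called (0.10 ± 0.049; -0.10 without TMM scaling). Cyp4v3, the mouse counterpart of the fatty acid hydroxylase mutated in Bietti crystalline dystrophy, was at 546, 518 and 543 CPM and at 391, 390.4 and 392 CPM and fell by 0.26 ± 0.042. Cyp4f40 fell by 0.33 ± 0.072 and Cyp4f13 by 0.11 ± 0.046, the latter with adjusted p = 0.041 (edgeR), lost under DESeq2 and without control replicate 3 (-0.08) or any 1 of the IE-HuR-/- replicates (-0.12 to -0.10). Cyp4a10, a classic target of PPARα at 1.15 to 1.28 CPM in control libraries and 3.21 to 4.10 CPM in the others, rose by 1.83 ± 0.14. The Cyp4f sum was 897 to 952 CPM under the control label and 939 to 954 CPM under the other, so its libraries overlapped.

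**Figure D4:**
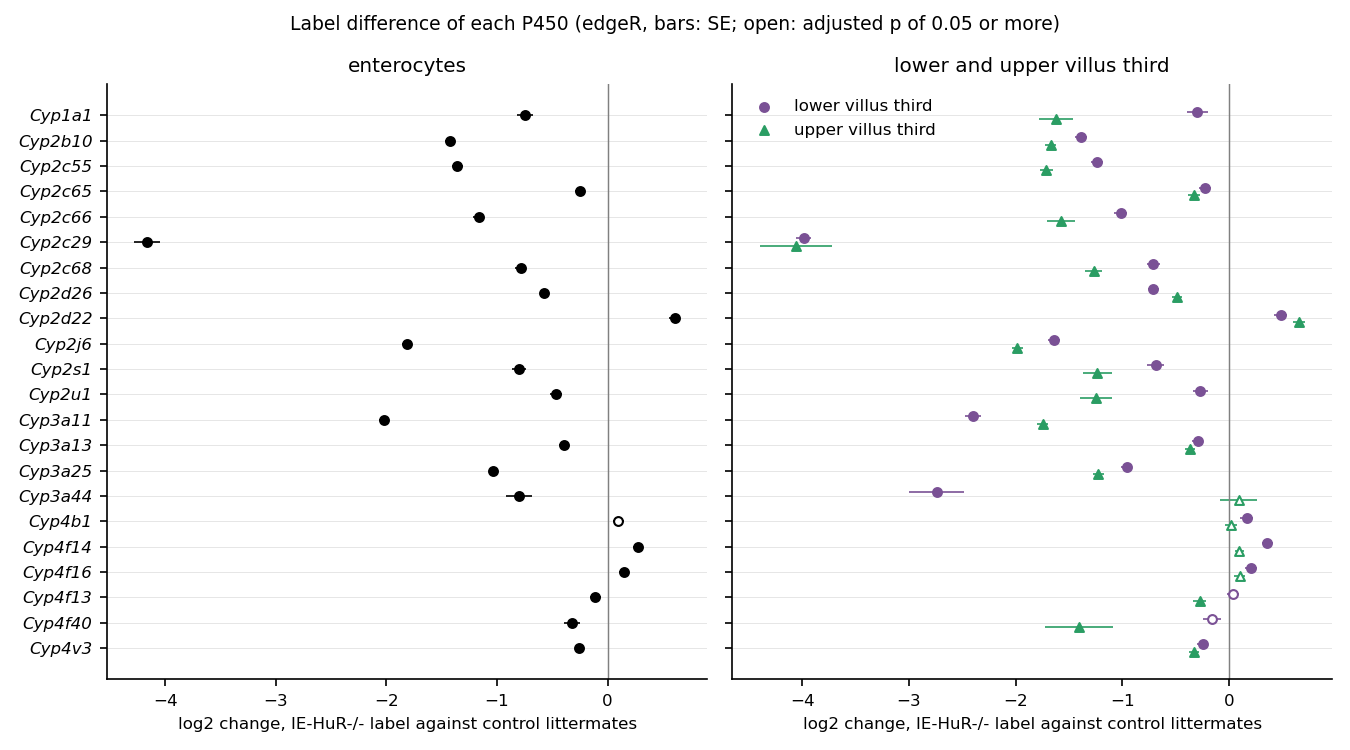
Log2 change of 22 P450 RNAs in libraries labelled IE-HuR-/- against control littermates (edgeR, bars: SE, 3 libraries per label) in all enterocytes (left) and in their lower and upper villus bin (right); open points have an adjusted p of 0.05 or more. Most points lie left of 0, Cyp2d22 lies right of it in each, and Cyp4f16, Cyp4b1 and Cyp4f14 lie near 0, where the sign of some depends on TMM scaling.

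The label difference held within villus bins but was not of one size. In the lower bin 19 of 28 tested members were lower and 5 higher (48.9% of all tested genes called, 23.9% as lower and 25% as higher). In the middle bin 20 of 28 were lower and 4 higher (49% called, 24.2% as lower and 24.8% as higher), and in the upper bin 18 of 26 were lower and 2 higher (58.1% called, 29.4% as lower and 28.7% as higher). Cyp2c29 fell by 3.99 ± 0.071 in the lower and 4.06 ± 0.34 in the upper bin. Cyp3a11 fell by 2.40 ± 0.075 in the lower and 1.75 ± 0.052 in the upper bin, and the test of the difference itself gave 0.74 ± 0.13 (adjusted p = 0.016, edgeR), a call lost without control replicate 2 (0.62, adjusted p = 0.069) or IE-HuR-/- replicate 3 (0.76, adjusted p = 0.076). In that test 16 of 29 members were called, 12 with a more negative change at the tip, and 4 with a less negative or more positive one. Of all tested genes 26.8% were called, 9.7% in the first and 17.1% in the second direction. Those 12 included Cyp1a1 (-0.30 ± 0.099 in the lower and -1.62 ± 0.16 in the upper bin), Cyp4f40 (-0.16 ± 0.083, not called, and -1.41 ± 0.32), Cyp2u1 (-0.27 ± 0.068 and -1.25 ± 0.15), Cyp2c66 (-1.02 ± 0.059 and -1.57 ± 0.13) and Cyp2c68 (-0.71 ± 0.060 and -1.27 ± 0.080). The call of Cyp1a1 in the lower bin was lost under DESeq2 (-0.29) and when the second control library (-0.27) or the third IE-HuR-/- library (-0.19) was left out. Cyp3a13 (-0.29 and -0.36), Cyp2c65 (-0.23 and -0.33) and Cyp4v3 (-0.25 and -0.33) were lower in both bins with no call for the difference between them, though with doubled gates the lower bin no longer gave a call for Cyp2c65 (-0.12) or Cyp4v3 (-0.10). Cyp4f14 was higher in the lower bin (0.36 ± 0.053) and not called in the upper (0.10 ± 0.045; -0.14 without TMM scaling).

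In goblet cells 11 of 19 tested members were lower under the knockout label and none was higher, where 18.1% of all tested genes were called, 7.98% as lower and 10.2% as higher. The P450 sum was 1687 ± 213 CPM in control libraries and 640 ± 116 CPM in the others (SD, n = 3 each). Cyp3a11 was at 344, 429 and 378 CPM in control goblet cells and at 44.7, 17.8 and 52.9 CPM in the others (-3.16 ± 0.26, adjusted p = 0.00012, edgeR). Cyp2c29 was at 25, 61.8 and 39.1 CPM and at 0.539, 0 and 0.92 CPM (-5.98 ± 0.67, adjusted p = 0.00022, edgeR). Beside this, T or NK cells of the same libraries held Cyp3a11 at 336, 479 and 204 CPM and at 41.1, 39.8 and 50.4 CPM, a P450 sum of 1133 ± 430 and 366 ± 40.5 CPM, and enterocyte markers in goblet cells were also lower under the knockout label (9 of 15 lower and 1 higher, summed at 10019 to 11054 CPM and at 6274 to 8582 CPM). The part of these values in the goblet difference was not tested. For the goblet-rich Cyp2s1, the change by label was -0.25 ± 0.14 and was not called; Cyp2c68 (-0.30 ± 0.16), at 105% of the enterocyte level in goblet and 9.61% in T or NK cells, and Cyp4f13 (0.10 ± 0.17), at 66.9% and 33.5%, were not called either. The call of Cyp4b1 (-0.94 ± 0.28) was lost without the second (-0.94) or the third (-0.73) control library or the first IE-HuR-/- library (-0.88). Against enterocytes, the label change of Cyp2s1 was smaller by 0.61 ± 0.17 (adjusted p = 0.013, edgeR) and that of Cyp2j6 by 1.00 ± 0.17, whereas those of Cyp2c66, Cyp2b10, Cyp2d26 and Cyp3a11 were more negative in goblet cells. In this test 14 of 31 members were called, 11 as more negative and 3 as less negative, and 6.12% of all tested genes, 3.33% and 2.79%. Of 15 enterocyte markers, 8 were more negative in goblet cells and 0 less negative. Their median was -0.62, beside -0.46 over the members, and the part of free RNA in these changes was not tested.

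Enteroendocrine cells gave 2 calls among 20 tested members, both lower (0.755% of all tested genes were called, 0.178% as lower and 0.577% as higher), and tuft cells 1 of 9, also lower (0.132%, 0.0442% as lower and 0.0883% as higher). Progenitors gave none of 6 (0.815% of all called, 0.337% as lower and 0.479% as higher; 628 genes had an unadjusted p under 0.05, and DESeq2 and every left-out library gave none too). Cyp2c29 was the gene called in enteroendocrine cells (20.7, 46.2 and 18.3 CPM, against 4.03, 0 and 2.06 CPM; -3.73 ± 0.71, adjusted p = 0.017, edgeR) and in tuft cells (60.7, 56.1 and 38.6 CPM, against 0, 0 and 6.27 CPM; -4.50 ± 0.68, adjusted p = 0.0017, edgeR). The first call was lost without control replicate 2 (-3.22) or the second (-3.05) or the third (-3.81) IE-HuR-/- library, and the other without control replicate 1 (-4.35) or 2 (-4.44) or the second IE-HuR-/- library (-3.66). The level of Cyp2c29 was 10.4% of that of enterocytes in enteroendocrine and 18.6% in tuft cells, beside 12.4% in T or NK cells, so its level in enteroendocrine cells is not above that in T or NK cells. Cyp2c55 was the other in enteroendocrine cells (-1.76 ± 0.34, adjusted p = 0.015, edgeR), lost without control replicate 1 (-1.72) or without the second (-1.56) or the third (-1.7) IE-HuR-/- library. The 6 of 22 abundant members that were above 50% of the enterocyte level in this class, Cyp2c68 (-0.25 ± 0.18), Cyp2u1 (0.10 ± 0.31), Cyp2s1 (-0.29 ± 0.48), Cyp4b1 (-0.19 ± 0.22), Cyp2c65 (-0.26 ± 0.18) and Cyp2j6 (-0.90 ± 0.26), were not called by label. Counts of these classes, with 12 to 48 cells per library in enteroendocrine and tuft cells, limit what can be detected.

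Of 10 genes of electron transfer and haem supply, 4 were lower and 1 higher in enterocytes by label (median log2 change -0.14), where 59.9% of all tested genes were called, 30.2% as lower and 29.7% as higher. Por, the electron donor of all these enzymes, was at 436, 419 and 444 CPM in control enterocytes and at 385, 392 and 371 CPM in the others and was not called after scaling (0.02 ± 0.04). Cyb5a was at 777, 820.0 and 864 CPM and at 483, 506 and 536 CPM and fell by 0.49 ± 0.05 (adjusted p = 3.5e-11, edgeR). Of 15 receptors and factors of P450 genes, 4 were higher and 7 lower (median -0.10), beside the same 59.9% of all genes. Nr1i2, which encodes PXR, was at 53.9, 56.2 and 56.0 CPM and at 52.9, 54.1 and 52.2 CPM; its change was 0.14 ± 0.05 with TMM scaling, while its unscaled mean was lower. Nr1i3, which encodes CAR, fell by 0.35 ± 0.05 (64.8, 71.3 and 65.1 CPM, against 45.0, 44.0 and 49.3 CPM), Ppara fell by 0.72 ± 0.07, Hnf4a rose by 0.38 ± 0.04, and Ahr was not called (-0.03 ± 0.06).

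Target genes of the aryl hydrocarbon receptor outside families 1 to 4 did not share a direction. Of 4 tested targets of the aryl hydrocarbon receptor, Nqo1 was higher (0.23 ± 0.05, with overlapping libraries) and Ugt1a6a lower (-0.82 ± 0.12). The other 2 were not called, where 59.9% of all tested genes were called. Of 3 tested P450s of other families, Cyp27a1, a mitochondrial sterol hydroxylase, fell by 1.20 ± 0.06, from 27.3, 27.8 and 28.0 CPM to 10, 10.4 and 11 CPM. Of 7 genes of the proximal gut 4 were lower and 1 higher (median -0.75), beside 30.2% and 29.7% of all genes, with S100g, the calcium-binding protein of the duodenum, at 201, 157 and 275 CPM in control libraries and at 5.45, 5.83 and 4.38 CPM in the others. Of 5 tested genes of the distal gut 4 were higher and none lower, with Fabp6, the ileal bile acid-binding protein, at 678, 716 and 686 CPM and at 2921, 3050 and 2866 CPM. Intestinal P450 levels are known to change along the gut, and the region that the libraries of each label sampled and the label itself cannot be told apart here.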

How the data were processed

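RNA of dissociated mucosal cells was measured in 6 droplet libraries, 3 of each label. What the authors deposited are counts of UMIs by gene and barcode before any normalization, for mouse genes; the matrix headers name Cell Ranger 6.1.2 and the labels mm10, while in the methods the reference is human and the kit 3′, and in the labels the kit is 5′. Cells with at least 200 genes and 2000 UMIs were assigned to classes by the UMI share of marker genes, with cut-offs set after marker shares, but not P450 values, were seen. Cells that passed more than 1 gate were left out, and no doublet caller was run. Members, lists and alternatives were chosen with earlier results of these data known.

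Counts were summed per library and class, so that libraries and not cells were replicates, and tested over all genes with edgeR 4.0.16 (TMM, filterByExpr at 10 counts and 15 in total, robust quasi-likelihood fit, R 4.3.3), with Benjamini-Hochberg adjusted p under 0.05 called. SE is the absolute log2 change divided by the root of F. Classes and villus bins were compared with library as a block, and label differences between them by an interaction term. CPM is counts per 1000000 UMIs of the class without TMM scaling. Named are members with a mean of at least 10 CPM in an epithelial class, or at least 5 CPM and called. Alternatives were DESeq2 1.42.0, no TMM scaling, no filter, other cell filters, doubled gates, thinned sums, other bins, the replicate number as a block and each library left out. The fits were first tested on simulated counts.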

Additional observations from a re-analysis of the deposited data

Results flagged for a closer look

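The difference between labels was itself tested for whether it depends on the villus bin, and 16 of 29 tested P450s passed that test (edgeR interaction term, adjusted p under 0.05, upper minus lower bin of the log2 change by label). Of all tested genes 26.8% passed, 9.7% with a more negative change at the tip and 17.1% in the other direction. In 12 of the 16 P450s the change was more negative at the tip. Of these, Cyp1a1, the classic aryl hydrocarbon receptor target, had -1.24, Cyp4f40 had -1.17 and Cyp2u1, a fatty acid hydroxylase, had -0.90. The CYP2C genes Cyp2c66 (-0.48), Cyp2c68 (-0.48) and Cyp2c55 (-0.39) were among them, as were Cyp2s1 (-0.46), Cyp2j6 (-0.26), Cyp4f13 (-0.23), Cyp2b10 (-0.20), Cyp3a25 (-0.18) and Cyp4f14 (-0.17). In the other direction were Cyp2d22 (0.25), Cyp2d26 (0.31), Cyp3a11 (0.74) and Cyp3a44 (2.91), the last at 1.92 to 5.35 CPM in enterocytes, with 14.8% of the windows at its transcript start shared with another gene. Cyp2d26 lost the call with doubled gates (0.02), and Cyp2d22 with doubled gates (0.03), without TMM scaling (0.10) and without any 1 of the control replicates (0.11 to 0.17). Single IE-HuR-/- libraries also decided calls: leaving out replicate 2 ended those of Cyp1a1 (-1.19), Cyp2s1 (-0.37) and Cyp4f13 (-0.19), replicate 3 those of Cyp2s1 (-0.42) and Cyp3a11 (0.76), and replicate 1 those of Cyp3a25 (-0.11), Cyp2b10 (-0.14) and Cyp4f14 (-0.13). Without control replicate 2 Cyp3a11 (0.62) lost its call. DESeq2 did not call Cyp2s1 (-0.47), Cyp2d22 (0.24) or Cyp4f13 (-0.24). Calls were also lost by Cyp2d22 without the filter on low counts (0.14), with the stricter cell filter (0.13) and when thinned (0.15), by Cyp2s1 with doubled gates (-0.39), by Cyp4f13 with cells of at least 500 UMIs (-0.14) and by Cyp1a1 without the 5% of cells with most UMIs (-0.89).

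The same kind of test between goblet cells and enterocytes called 14 of 31 tested P450s, 13 with a fold that can be given (goblet minus enterocyte log2 change by label). Of all tested genes 6.12% were called, 3.33% as more negative in goblet cells and 2.79% as less negative. More negative in goblet cells were Cyp2c66 (-1.97), Cyp2b10 (-1.51), Cyp2d22 (-1.48), Cyp2d26 (-1.32), Cyp2c55 (-1.14), Cyp3a11 (-1.08), Cyp4b1 (-0.97), Cyp4v3 (-0.87), Cyp4f16 (-0.64) and Cyp3a13 (-0.46). Of 15 enterocyte markers, 8 were more negative there too and 0 less negative. Less negative were Cyp2c68 (0.54), Cyp2s1 (0.61) and Cyp2j6 (1.00). The part of free RNA in either direction was not tested. Without TMM scaling Cyp3a13 lost its call (-0.41), Cyp2c66 did so with doubled gates (-0.67), and without control replicate 1 so did Cyp2s1 (0.45) and Cyp2c68 (0.46). On thinned sums Cyp2d22 (-1.23), Cyp3a13 (-0.46) and Cyp2s1 (0.93) lost theirs, as did Cyp3a11 without the 5% of cells with most UMIs (-1.23). DESeq2 did not call Cyp3a13 (-0.47), Cyp4f16 (-0.66) or Cyp2c68 (0.55). Calls of Cyp2c68, Cyp3a13, Cyp4f16 and Cyp4b1 were lost without other single libraries as well. Cyp3a44 was called too, with no UMI in goblet cells labelled IE-HuR-/-, so no fold is given.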

How the results depend on the processing

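Counts of called P450s stayed within 1.5 times the reported count in 206 recomputed counts and moved further in 22. In enteroendocrine cells the count by label was 6 without the filter on low counts, 1 with cells held to 500 genes or more and mitochondrial shares up to 25%, 1 with doubled gates, 0 when thinned, and 0 to 4 with 1 library left out. In tuft cells it was 2 without the filter, 0 with the stricter cell filter, 0 when thinned and 0 to 2 with 1 library left out. In progenitors it was 1 without the filter. Thinned sums gave 16 calls between enteroendocrine cells and enterocytes, 13 for tuft cells and 14 for progenitors. By construction thinned sums hold fewer UMIs; the cause of the other moves was not tested.

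Without TMM scaling the sign turned for Cyp4b1 (-0.10) and Cyp4f16 (-0.0449) by label in enterocytes, Cyp4b1 in the lower bin (-0.00724), Cyp4f14 in the upper bin (-0.14), Cyp4b1 between enteroendocrine cells and enterocytes (0.37, and 0.17 when thinned), and Cyp2d22 (-0.0214) and Cyp2d26 (-0.13) between bins. That list covers called values and a few uncalled ones. Further uncalled values differed in direction from unscaled CPM. Cyp2s1 in enteroendocrine cells, and Cyp2s1 and Cyp4f40 in progenitors, were fitted as lower than in enterocytes while their pooled CPM was higher. Cyp4f13 was fitted as higher toward the tip while its CPM was lower there in 6 of 6 libraries. Of the values of single called genes, 3260 kept direction and call, 104 lost the call and 6 reversed. By label, calls ranged from 26 to 34 in enterocytes and from 10 to 15 in goblet cells.

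Replicate numbers did not pair the libraries (correlations of same-numbered deviations -0.10, -0.12 and 0.07). With the replicate number as a block, tuft cells had 0 calls and progenitors 1.

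Enteroendocrine cells, tuft cells and progenitors held few cells, which limits the calls there. Levels near those of the enterocyte markers in a class cannot be read as expression there.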

Other observations

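Outside the epithelium, some P450s were above their enterocyte level. Fibroblasts numbered 70 over all libraries, with 20, 26 and 9 in the control libraries and 6, 4 and 5 in those labelled IE-HuR-/-. In these cells Cyp2s1 was at 233, 322 and 208 CPM under the control label and at 210.3, 318 and 319 CPM under the other. Its pooled level was 1992% of the enterocyte level, and Cyp2d22 was there at 148% from 66 UMIs. Cyp4f18, which breaks down leukotriene B4 in leukocytes, was at 120 CPM in B or plasma cells (66 UMIs, 95% exact Poisson interval 92.7 to 152 CPM, counting error only) and at 112 CPM in myeloid cells (75 UMIs, 88.1 to 140.4 CPM). These were described after their values were seen, and were not tested.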
